A study of Mus musculus with 6 samples.

Results

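The genes described here are the immunoglobulin genes read in hepatocyte preparations of mice with CCl4-induced liver fibrosis, with or without FOXA2 in hepatocytes. They were chosen by their symbol (names that start with Ighv, Ighm, Ighg, Igha, Ighd, Ighe, Ighj, Igkv, Igkc, Igkj, Iglv, Iglc or Jchain) and selected on their counts: the counts of a gene, summed over the 6 libraries, had to reach 10. Of 34745 genes in the deposited tables, 392 had such a name and 146 reached the minimum. One of these, Ighmbp2, encodes a DNA helicase and only shares the first letters of its name, so that 145 immunoglobulin genes remained: 7 heavy chain constant genes, 4 light chain constant genes, Jchain, 4 joining (J) segments, 65 heavy chain variable (V) segments, 61 kappa V segments and 3 lambda V segments. The summed count also decided how well each gene could be read. It was below 100 for 117 of the 145 genes. Just inside the minimum, 6 V segments had a summed count of exactly 10 (among them Ighv9-4 and Igkv2-112), and just outside it Ighv1-59, Igkv12-89 and Ighj4 had 9. Of the 246 genes left out, 179 had no count in any library. Ighe, the constant gene of IgE, was among those left out.

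The mice were male, 12 weeks old, and all carried floxed alleles of Foxa2 and received CCl4, a hepatotoxin that causes fibrosis when given repeatedly, at 0.25 ml per kg, 2 times a week for 4 weeks. For FOXA2H-KO+CCl4, Cre recombinase had been delivered 2 weeks before the first CCl4 dose with the adeno-associated virus AAV8-TBG-Cre, in which the TBG promoter limits expression to hepatocytes. FOXA2f/f+CCl4 mice had received the control virus and are called controls below. Each group had 3 libraries, numbered 1, 2 and 4, and no group without CCl4 was analysed here. The labels name the cells as primary hepatocytes, which the study obtained by collagenase perfusion of the liver, and no cell sort is described for them. The promoter directs the deletion to hepatocytes, so the cells that make immunoglobulin were not targeted.

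An antibody is made of heavy and light chains. In a developing B cell, 1 of many V segments is joined to a J segment (with a D segment between them in the heavy chain), and the joined exon is spliced to a constant gene. Because the joining is made once per cell and passed to its progeny, the V segments read in a tissue reflect which B cell clones and plasma cells are in it. The first heavy chain classes are IgM and IgD, from Ighm and Ighd; after class switching the same V exon is expressed with a downstream constant gene, Ighg1, Ighg2b, Ighg2c or Ighg3 for IgG, Ighe for IgE or Igha for IgA. Jchain encodes the joining chain that links the units of secreted IgA and IgM. Plasma cells hold very large amounts of these transcripts, and hepatocytes do not rearrange the loci; in the liver the cells known to carry them are B cells and plasma cells.

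The sequences that tell V segments apart are short, and some segments are close to identical, which limits how counts can be assigned to them. The last 60 bases of the V exon are shown for the segments that lead the results, 5′ to 3′ in the coding strand, from GENCODE M21 transcripts on GRCm38, the same assembly as mm10, which the submitters' processing notes name. Capitals mark the last cysteine codon of the V exon in its reading frame, after which the segment is joined to its partner. The first set holds segments whose level was higher in every control library than in every FOXA2H-KO+CCl4 library:
Ighv9-3 (chr12:114140692-114140751, minus strand): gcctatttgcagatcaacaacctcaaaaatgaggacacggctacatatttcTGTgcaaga
Igkv1-135 (chr6:67610449-67610508, plus strand): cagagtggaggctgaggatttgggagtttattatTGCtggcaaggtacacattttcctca
Igkv14-111 (chr6:68256810-68256869, plus strand): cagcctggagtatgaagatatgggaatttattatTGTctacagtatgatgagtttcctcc
Igkv2-109 (chr6:68303099-68303158, plus strand): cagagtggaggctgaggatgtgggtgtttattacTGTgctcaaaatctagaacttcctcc
The second set holds segments that had the most counts of their chain in at least 1 library:
Ighv14-3 (chr12:114059845-114059904, minus strand): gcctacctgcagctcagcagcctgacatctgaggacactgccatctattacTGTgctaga
Ighv1-72 (chr12:115757984-115758043, minus strand): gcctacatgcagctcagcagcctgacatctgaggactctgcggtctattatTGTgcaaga
Ighv3-6 (chr12:114288152-114288211, minus strand): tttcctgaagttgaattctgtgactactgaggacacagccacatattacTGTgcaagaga
Ighv1-64 (chr12:115507545-115507604, minus strand): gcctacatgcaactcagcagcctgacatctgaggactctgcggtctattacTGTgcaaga
Igkv1-110 (chr6:68271208-68271267, plus strand): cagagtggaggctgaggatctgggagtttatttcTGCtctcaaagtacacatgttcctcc
Igkv10-96 (chr6:68631963-68632022, minus strand): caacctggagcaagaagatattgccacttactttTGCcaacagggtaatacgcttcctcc
The 2 segments of the Igkv17 family among the members are shown whole, because they differ at 6 of the 298 bases of the V exon. Capitals mark the differing bases:
Igkv17-127 (chr6:67861362-67861659, plus strand): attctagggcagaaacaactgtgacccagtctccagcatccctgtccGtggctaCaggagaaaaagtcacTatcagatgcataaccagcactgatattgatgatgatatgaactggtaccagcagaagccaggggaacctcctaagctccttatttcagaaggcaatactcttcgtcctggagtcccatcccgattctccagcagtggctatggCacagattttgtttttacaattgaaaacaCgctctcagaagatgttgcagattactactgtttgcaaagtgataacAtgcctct
Igkv17-121 (chr6:68037021-68037318, plus strand): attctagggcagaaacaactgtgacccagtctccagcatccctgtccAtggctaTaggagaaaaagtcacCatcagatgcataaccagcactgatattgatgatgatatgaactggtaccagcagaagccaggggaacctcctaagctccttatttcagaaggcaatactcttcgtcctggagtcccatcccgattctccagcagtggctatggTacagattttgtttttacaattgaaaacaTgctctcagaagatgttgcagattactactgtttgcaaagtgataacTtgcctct
The first difference lies at base 48 of the exon and the last at base 291. A read that covers none of the 6 bases fits both segments, so that Igkv17-127 and Igkv17-121 are given below also as a sum. The J segments that reached the minimum are short, which leaves few reads that can be counted on them alone:
Igkj3 (chr6:70723223-70723260, plus strand): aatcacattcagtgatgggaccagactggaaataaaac
Igkj4 (chr6:70723548-70723585, plus strand): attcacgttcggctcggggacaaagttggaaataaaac
Igkj5 (chr6:70723886-70723927, plus strand): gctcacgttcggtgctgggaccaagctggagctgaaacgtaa
Ighj3 (chr12:113429085-113429132, minus strand): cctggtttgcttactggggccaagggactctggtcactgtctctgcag
Igkj3, Igkj4, Igkj5 and Ighj3 had 13, 11, 17 and 16 counts over all 6 libraries, and none passed the filter of the test described below. In a comparison of the V exons of 348 annotated segments of these loci, 39 of the 65 heavy, 32 of the 61 kappa and 2 of the 3 lambda V members were at least 95% identical to another segment of the same chain. Ighv1-72 was 99.02% identical to Ighv1-62-3, and Ighv1-64 was 96.1% identical to Ighv1-72, whereas Ighv9-3 was 94.4% identical to its closest relative. Counts of single V segments are therefore uncertain where a near-identical copy exists, and sums over a chain are not affected by exchange between its members.

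Total counts were between 20983455 and 28327765 per library. Foxa2 checked the labels: it had 442, 246 and 516 counts in controls 1, 2 and 4 and 28, 19 and 35 in FOXA2H-KO+CCl4 libraries 1, 2 and 4, a log2 difference of -3.85 ± 0.31 (SE; edgeR quasi-likelihood test, adjusted p = 0.0313). Controls 1, 2 and 4 differed widely in the summed markers of cells other than hepatocytes. Macrophage markers summed to 1041, 532 and 2371 CPM (counts scaled to the library total) in controls 1, 2 and 4 and to 1895, 1642 and 1202 CPM in FOXA2H-KO+CCl4. Endothelial markers were at 487, 301 and 1014 CPM against 486, 645 and 638 CPM, and T cell markers at 2.92, 0.822 and 5.85 CPM against 3.94, 4.41 and 2.96 CPM. For these 3 lists and for neutrophil markers, control 2 was the lowest of the 6 libraries. Control 4 was the highest of the 6 for these 3 lists. Red blood cell markers went the other way, at 46.5, 86.0 and 53.6 CPM in controls 1, 2 and 4, with control 2 the highest of the 6. In FOXA2H-KO+CCl4 libraries 1, 2 and 4 they were at 31.0, 39.1 and 29.6 CPM, lower than in every control. Control 2 was also the lowest in summed immunoglobulin, and these levels are given with and without it. Leaving out the lowest control makes overlap less likely, so that the values without it are a description only.

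Immunoglobulin genes took a very small part of each library, and less in every FOXA2H-KO+CCl4 library than in controls 1 and 4. The 145 genes had 8316, 1324 and 15231 counts in controls 1, 2 and 4, and 2855, 4800 and 2544 in FOXA2H-KO+CCl4 libraries 1, 2 and 4. This was 0.0325%, 0.00631% and 0.0538% of all counts in controls, and 0.0118%, 0.0196% and 0.0117% in FOXA2H-KO+CCl4. Scaled to the TMM-adjusted library size, the summed level was 357, 72.6 and 484 CPM in controls (305 ± 211, SD, n = 3) and 105, 192 and 118 CPM in FOXA2H-KO+CCl4 (138 ± 47.3, SD, n = 3), a ratio of group means of 0.454. The groups overlapped, because control 2 was the lowest of all 6 libraries while controls 1 and 4 were the highest. Without control 2 the groups did not overlap, and the ratio was 0.329. Without control 4 they still overlapped. On the log2 scale the ratio was -1.60 without control 2 and -0.64 without control 4. No test was made on this sum, as its members were chosen with results of these data known. In a bulk preparation, fewer B cells or plasma cells and less immunoglobulin RNA per cell cannot be told apart.

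**Figure D1:**
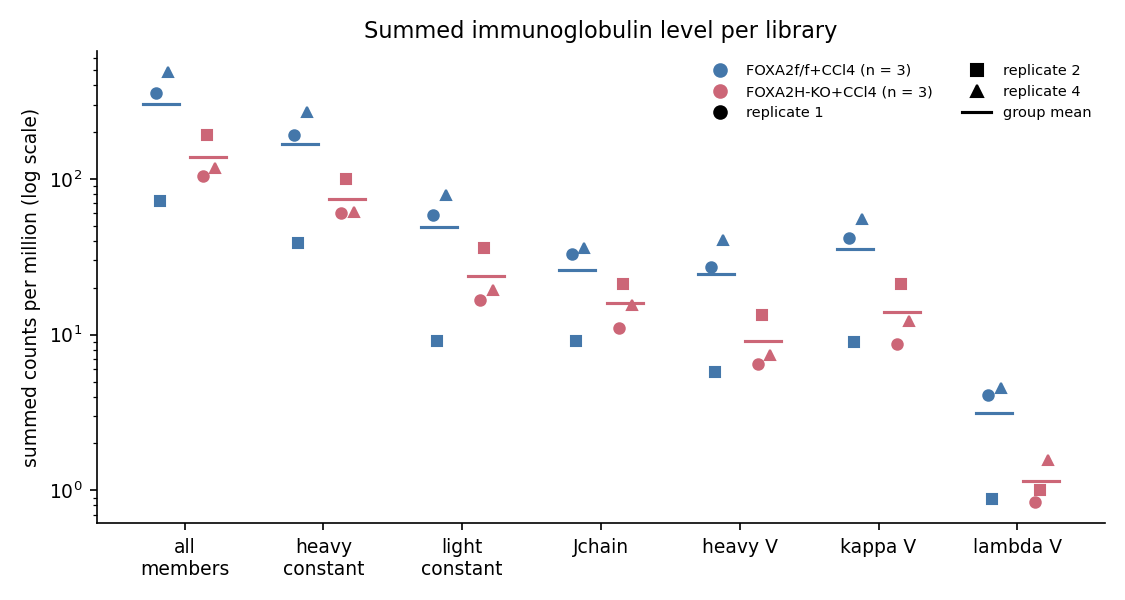
Summed level of immunoglobulin genes per library in CPM on a log axis, for all 145 genes and for heavy constant genes, light constant genes, Jchain and heavy, kappa and lambda V segments; points are libraries, marker shape gives the replicate number, and bars are group means of 3 libraries. Control 2 lies below controls 1 and 4 in each of these sums.

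In the constant genes and in the V segments, control 2 was the lowest and control 4 the highest of the controls. Heavy constant genes were at 192, 38.5 and 269 CPM in controls 1, 2 and 4 and at 60.8, 99.7 and 61.6 CPM in FOXA2H-KO+CCl4 libraries 1, 2 and 4. Light constant genes were at 58.9, 9.05 and 78.7 CPM against 16.7, 35.9 and 19.2 CPM. All V segments were at 72.9, 15.6 and 100.4 CPM against 15.9, 35.5 and 21.1 CPM. The ratio of the group means was 0.445 for heavy constant, 0.490 for light constant and 0.384 for V segments, with overlap in all 3 cases. Without control 2 the ratios were 0.321, 0.348 and 0.279, and none of the 3 classes overlapped. Marker lists of other cells are given for the same libraries. Neutrophil markers summed to 115, 11.4 and 77.3 CPM in controls 1, 2 and 4 and to 27.3, 32.1 and 19.9 CPM in FOXA2H-KO+CCl4, so that they too were highest in controls 1 and 4. Hepatocyte markers summed to 153430, 168930 and 121090 CPM in controls and 118650, 141380 and 151820 CPM in FOXA2H-KO+CCl4. The part of cell makeup in the immunoglobulin levels was not tested.

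The make-up of the heavy constant counts differed between the groups more clearly than their sum did, and it does not depend on scaling between libraries. Ighm, which encodes the IgM heavy chain, took 2.82% (exact 95% binomial interval 2.35 to 3.35), 6.55% (4.84 to 8.64) and 6.21% (5.71 to 6.75) of the heavy constant counts in controls 1, 2 and 4. In FOXA2H-KO+CCl4 libraries 1, 2 and 4 it took 20.6% (18.7 to 22.7), 11.4% (10.2 to 12.7) and 16.1% (14.2 to 18.2). Every FOXA2H-KO+CCl4 library lay above every control, with group means of 16.1% ± 4.63 and 5.19% ± 2.07 (SD, n = 3). Ighd, the gene of IgD, which is expressed with IgM on B cells that have not switched class, took 0.157%, 0.712% and 0.402% in controls and 4.18%, 1.29% and 1.20% in FOXA2H-KO+CCl4. These groups did not overlap either. FOXA2H-KO+CCl4 library 1 set much of the mean difference in Ighd, which was 1.8 percentage points with it and 0.820 without it. The intervals cover counting error only.

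The IgG genes were the ones with smaller shares in FOXA2H-KO+CCl4. Together they took 50.4%, 50.4% and 57.5% of the heavy constant counts in controls 1, 2 and 4, and 31.8%, 32.4% and 34.7% in FOXA2H-KO+CCl4. The spread within each group, with SDs of 4.06 and 1.52 percentage points, was small beside the mean difference of -19.8 points. Ighg1 was the IgG gene with the widest gap: 11.3% (10.4 to 12.3), 12.4% (10.05 to 15.1) and 13.6% (12.9 to 14.3) in controls against 6.30% (5.17 to 7.58), 1.45% (1.02 to 2.0) and 5.25% (4.12 to 6.59) in FOXA2H-KO+CCl4. Ighg2b took 23.4%, 22.9% and 26.8% in controls and 16.8%, 16.6% and 20.6% in FOXA2H-KO+CCl4, again without overlap. Ighg2c, the form of IgG2 carried by C57BL/6 mice, overlapped, at 14.9%, 13.5% and 16.6% against 7.81%, 13.9% and 8.18%. Ighg3 was rare, between 0.402% and 1.57% in all libraries. Igha took 46.6%, 42.3% and 35.9% in controls and 43.4%, 55.0% and 48.0% in FOXA2H-KO+CCl4, and its groups overlapped. Ighg2b and Ighg2c share 70 stretches of 50 bases, 2.78% of those in Ighg2b. They are a larger part of Ighg2c, whose longest transcript has 1214 bases against 2566 for Ighg2b. A read that lies within a shared stretch fits both genes. Read per length, as shares of FPKM, the Ighm, Ighd, Ighg1 and Ighg2b groups and the IgG sum also did not overlap. No test was made on shares, since an exact permutation test of 3 libraries against 3 cannot give a p below 0.1.

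**Figure D2:**
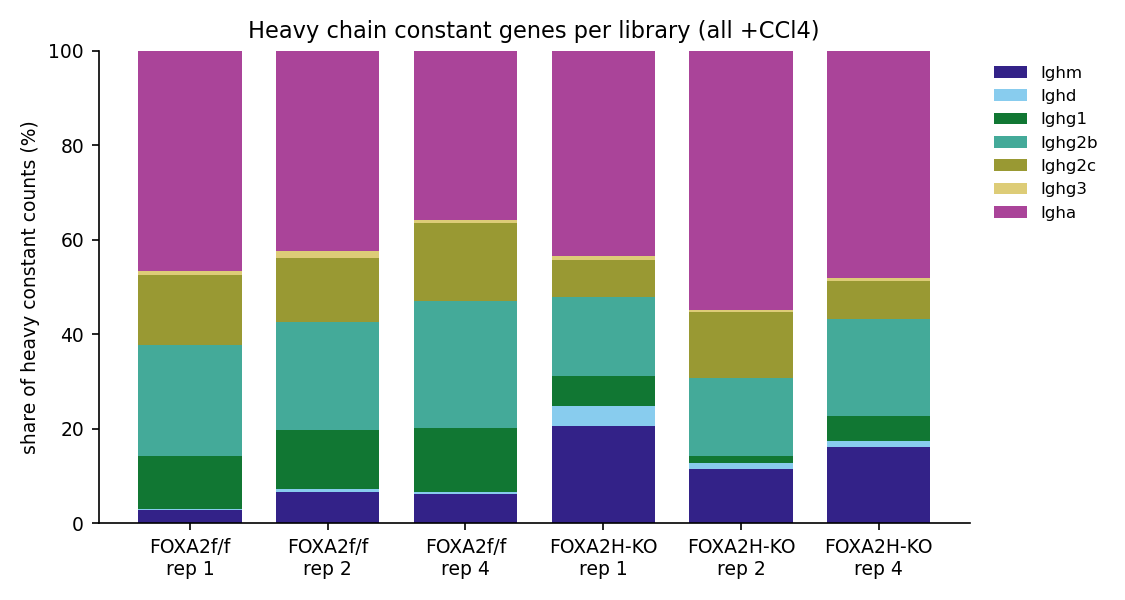
Share of each heavy chain constant gene among the heavy constant counts of a library, in percent, as stacked bars with 1 bar per library. Ighm at the foot of the bars is between 11.4% and 20.6% in FOXA2H-KO+CCl4 and between 2.82% and 6.55% in controls, and Ighg1 is smaller in each FOXA2H-KO+CCl4 library than in each control.

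On the scale of levels rather than shares, Ighm and Ighd had higher group means in FOXA2H-KO+CCl4 and the other heavy constant genes had lower ones. Ighm was at 5.41, 2.52 and 16.7 CPM in controls 1, 2 and 4 and at 12.5, 11.3 and 9.94 CPM in FOXA2H-KO+CCl4 libraries 1, 2 and 4, with a log2 difference of 0.44 ± 0.58 (SE). Ighd was at 0.301, 0.274 and 1.08 CPM against 2.54, 1.28 and 0.740 CPM. Both overlapped. Ighg1 was at 21.8, 4.77 and 36.5 CPM against 3.83, 1.44 and 3.24 CPM, so that even control 2, with the lowest immunoglobulin sum, lay above all FOXA2H-KO+CCl4 libraries. Igha was at 89.5, 16.3 and 96.5 CPM against 26.4, 54.8 and 29.6 CPM, and its groups overlapped. The summed CPM of the IgG genes was 0.269 times that of controls in the group means, and that of Ighm with Ighd was 1.46 times that of controls. Without control 2 these ratios were 0.194 and 1.09. The fitted log2 difference of Ighm was 0.02 without control 2 and 1.49 without control 4. That of Ighd was 0.82 without FOXA2H-KO+CCl4 library 1 and 2.39 without control 4. Both sums overlapped with control 2, and without it the IgG sum did not overlap.

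The light chains were kappa in nearly all counts, the usual state in mice. Igkc took 97.5%, 94.5% and 97.5% of the light constant counts in controls 1, 2 and 4 and 96.7%, 97.9% and 95.2% in FOXA2H-KO+CCl4, and the means, 96.5% ± 1.72 and 96.6% ± 1.35 (SD, n = 3), differed by less than the SD. The level of Igkc was 57.5, 8.55 and 76.7 CPM in controls against 16.1, 35.1 and 18.3 CPM. Per length, Igkc had the highest mean level of the constant genes, at 90.8 FPKM in controls and 45.1 FPKM in FOXA2H-KO+CCl4, while Igha was at 22.5 and 12.7 FPKM. Of the lambda constant genes, Iglc1 had 82, Iglc2 65 and Iglc3 11 counts in all. Exons of other annotated genes overlap 20.6% of the Iglc3 and 6.2% of the Iglc2 exon length, and 43 of the 50-base windows of Iglc2 occur unchanged in Iglc3, so that these 2 genes are uncertain.

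Jchain followed the sum of the constant genes. It had 770, 167 and 1129 counts in controls 1, 2 and 4 and 301, 526 and 336 in FOXA2H-KO+CCl4, or 33.1, 9.16 and 35.9 CPM against 11.1, 21.1 and 15.5 CPM. The ratio of the group means was 0.611 with overlap, and 0.461 without control 2 and without overlap. For each count on Igha and Ighm, the genes of the classes that carry the joining chain, there were 0.349, 0.487 and 0.317 counts on Jchain in controls and 0.285, 0.319 and 0.393 in FOXA2H-KO+CCl4. These ratios overlapped. V counts were also set against the counts of the constant genes. There were 0.142, 0.150 and 0.150 heavy V counts for each heavy constant count in controls and 0.106, 0.135 and 0.119 in FOXA2H-KO+CCl4, without overlap. For each count on Igkc, kappa V counts were 0.722, 1.04 and 0.725 in controls and 0.535, 0.599 and 0.667 in FOXA2H-KO+CCl4, also without overlap.

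Set to equal counts, fewer V segments were read in FOXA2H-KO+CCl4 libraries, whereas the numbers as read overlapped. The heavy V members had 636, 105 and 1268 counts in controls 1, 2 and 4, on 63, 39 and 65 of the 65 segments, and 175, 335 and 159 counts in FOXA2H-KO+CCl4, on 39, 47 and 31 segments. Because these numbers follow the counts, each library was set to the 105 heavy V counts of the smallest. The expected number of segments was then 43.3, 39.0 and 43.1 in controls and 35.2, 31.9 and 28.3 in FOXA2H-KO+CCl4, with means of 41.8 ± 2.45 and 31.8 ± 3.41 (SD, n = 3) and no overlap. At 163 kappa V counts the expected number was 44.4, 40.0 and 45.4 against 37.0, 39.3 and 34.0 of 61 segments, again without overlap. Of the 129 V members, 80 had counts in all 3 controls and 42 in all 3 FOXA2H-KO+CCl4 libraries, and 33 in all 6. Ighv1-42, Ighv8-12, Ighv2-2, Ighv9-1, Ighv1-15, Ighv5-9 and Igkv8-19 had no count in any FOXA2H-KO+CCl4 library and 14 to 29 in the controls, and no V member was without a count in all controls. The controls held more V counts, and a segment could reach the minimum of 10 counts through the controls alone, so that these numbers are a description and no support for a difference. A count of 0 in FOXA2H-KO+CCl4 library 4 allows a share of up to 1.89% of its heavy V counts.

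Which segment led differed from library to library. Among heavy V segments the largest share was that of Ighv14-3 in control 1, at 5.82% (exact 95% interval 4.13 to 7.93), and that of Ighv9-3 in controls 2 and 4, at 14.3% (8.22 to 22.5) and 6.47% (5.18 to 7.96). In FOXA2H-KO+CCl4 library 1 it was Ighv1-72, at 8.57% (4.88 to 13.7), in library 2 Ighv3-6, at 17.9% (14.0 to 22.4), and in library 4 Ighv1-64, at 28.3% (21.5 to 36.0). The top share averaged 8.86% ± 4.71 in controls and 18.3% ± 9.87 in FOXA2H-KO+CCl4 (SD, n = 3), and the groups overlapped. Library 4 decided much of the difference of 9.40 percentage points, which was 4.38 without it, and library 1 lowered it, since without that library it was 14.2. Read per length, as shares of FPKM, the leading segment became Ighv9-3 in control 1 and Ighv1-72 in FOXA2H-KO+CCl4 library 2.

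Ighv1-64 was the heavy V segment whose share ranged most between libraries. It had 30, 4 and 50 counts in controls 1, 2 and 4 and 8, 17 and 45 in FOXA2H-KO+CCl4 libraries 1, 2 and 4, which is 4.72%, 3.81% and 3.94% of heavy V counts against 4.57%, 5.07% and 28.3%. In the other 5 libraries the share thus lay between 3.81% and 5.07%, and library 4 alone stood at 28.3%. Ighv3-6 had 2.52%, 5.71% and 4.97% in controls and 2.29%, 17.9% and 3.14% in FOXA2H-KO+CCl4, with library 2 alone high. In that same library Ighv1-72 was next, with 45 of 335 counts, or 13.4%, and Ighv1-18 followed with 19 counts. In the other 5 libraries the next 2 segments each held 5.03% to 6.67% of heavy V counts. They were Ighv1-55 and Ighv9-3 in control 1, Ighv1-7 and Ighv3-6 in control 2 and Ighv1-82 and Ighv5-4 in control 4. In FOXA2H-KO+CCl4 they were Ighv14-4 and Ighv1-78 in library 1 and Ighv14-1 and Ighv1-72 in library 4. Ighv14-3, the leading segment of control 1, had 37, 1 and 37 counts in controls and 0, 1 and 4 in FOXA2H-KO+CCl4. Its share was 0.952% in control 2, 2.92% in control 4 and 2.52% in FOXA2H-KO+CCl4 library 4, and the groups overlapped.

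Among kappa V segments the leading one also differed between libraries. Igkv1-135 led in controls 1 and 2, at 7.25% (5.69 to 9.07) and 11.7% (7.17 to 17.6), and Igkv10-96 in control 4, at 7.72% (6.51 to 9.07). Igkv1-110 led in FOXA2H-KO+CCl4 libraries 1 and 2, at 16.6% (12.1 to 22.0) and 10.1% (7.65 to 13.0), and Igkv10-96 in library 4, at 13.6% (9.74 to 18.4). The means, 8.87% ± 2.42 and 13.4% ± 3.26 (SD, n = 3), overlapped in their libraries. Without FOXA2H-KO+CCl4 library 1 the difference of 4.57 percentage points was 2.99. Igkv4-68 had 10, 2 and 34 counts in controls and 0, 2 and 29 in FOXA2H-KO+CCl4, so that it reached 11.0% of the kappa V counts of library 4 and at most 1.94% elsewhere. Igkv10-94 likewise had 15, 2 and 45 counts in controls, and 0, 41 and 0 in FOXA2H-KO+CCl4. It shared the second rank in library 2 with Igkv8-21, at 7.81% each, and was unread in libraries 1 and 4. Igkv1-117, which is 96.81% identical to Igkv1-110, ranked second in FOXA2H-KO+CCl4 library 1 with 11.1%, where reads may be divided between these relatives.

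The inverse Simpson index, the number of equally used segments that would give the same evenness, put these shares into 1 value. For heavy V it was 37.4, 24.3 and 36.9 in controls 1, 2 and 4 and 32.6, 14.7 and 10.3 in FOXA2H-KO+CCl4 libraries 1, 2 and 4, with overlap between control 2 and library 1. For kappa V it was 30.4, 23.0 and 29.2 against 15.4, 21.6 and 17.1, and every FOXA2H-KO+CCl4 library lay below every control. The index covers members only, and a segment could reach the minimum of 10 counts through the controls alone, so this is a description. The 3 leading kappa V segments held 20.2%, 26.4% and 22.3% of kappa V counts in controls and 37.0%, 25.7% and 33.0% in FOXA2H-KO+CCl4, with overlap. Iglv1 led the 3 lambda V segments in all 6 libraries, with 62.5% to 71.1% of the lambda V counts in controls and 40.0% to 82.6% in FOXA2H-KO+CCl4, on 16 to 142 counts per library.

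**Figure D3:**
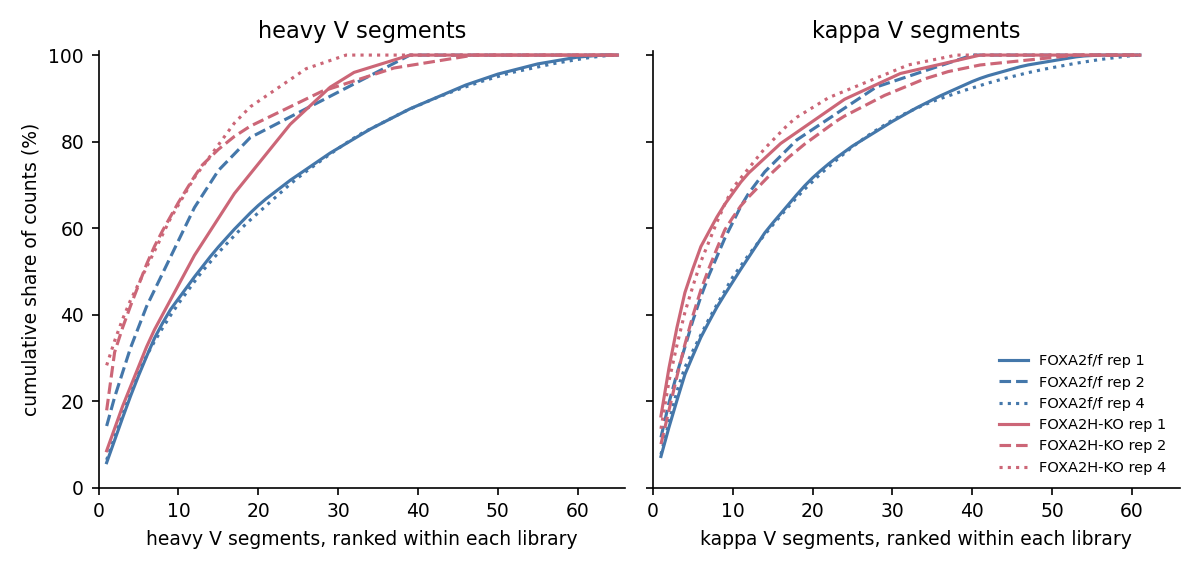
Cumulative share of heavy V counts (left) and kappa V counts (right), in percent, against the rank of the segment within its library; each line is 1 library, colour gives the group and line style the replicate. Curves that rise faster hold more counts in few segments: at rank 1 they start between 5.82% and 28.3% for heavy V and between 7.25% and 16.6% for kappa V.

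The control libraries were more alike in their V segment use than the FOXA2H-KO+CCl4 libraries were. Similarity was measured with the Morisita index, which is near 1 when 2 libraries draw from the same shares and corrects for their counts. For heavy V it was 0.732 for controls 1 and 2, 0.940 for controls 1 and 4 and 0.819 for controls 2 and 4. For FOXA2H-KO+CCl4 it was between 0.410 and 0.592 over the 3 pairs, and for the 9 pairs of 1 library from each group between 0.331 and 0.698. For kappa V the 3 control pairs lay between 0.916 and 0.940, the 3 FOXA2H-KO+CCl4 pairs between 0.486 and 0.687 and the 9 mixed pairs between 0.538 and 0.748. All 3 control pairs were thus above all 12 other pairs in both chains. The mean of control pairs exceeded that of FOXA2H-KO+CCl4 pairs by 0.353 for heavy and 0.364 for kappa V, and without FOXA2H-KO+CCl4 library 4 by 0.239 and 0.240. Pairs share libraries and are not independent, and no test was made.

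**Figure D4:**
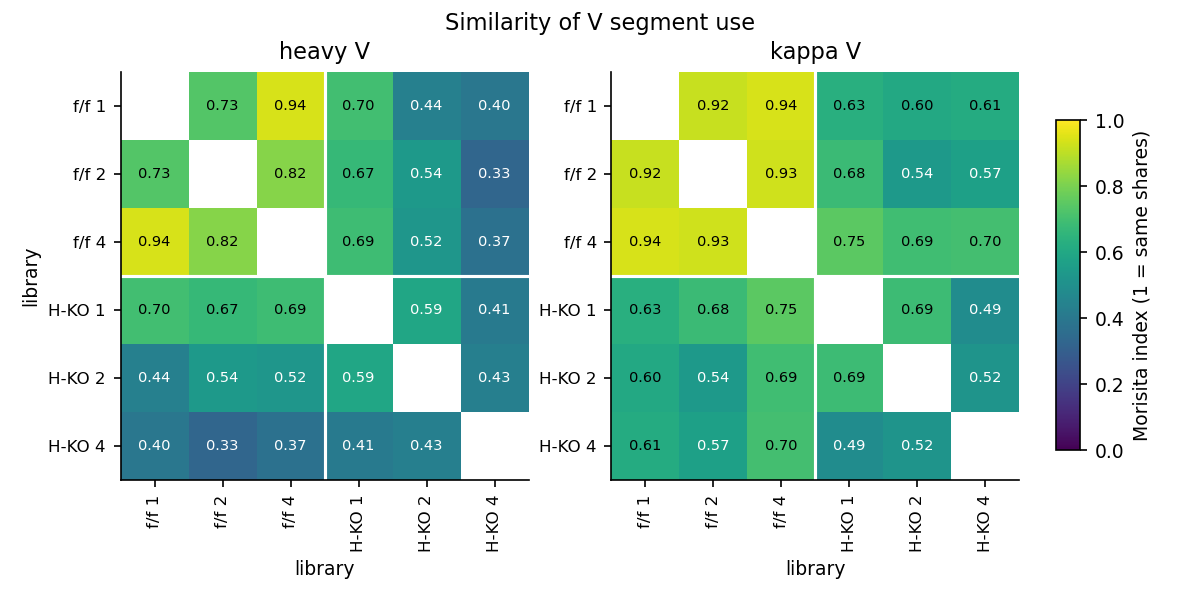
Morisita index of V segment use between every pair of libraries, for heavy V (left) and kappa V (right), as colour and printed value; f/f marks FOXA2f/f+CCl4, H-KO marks FOXA2H-KO+CCl4, numbers are replicates and white lines part the groups. The block of control pairs at the upper left runs from 0.73 to 0.94 for heavy V and from 0.92 to 0.94 for kappa V, above all other pairs.

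Some segments had a higher level in every control than in every FOXA2H-KO+CCl4 library. Igkv14-111 had 27, 13 and 56 counts in controls 1, 2 and 4 and 3, 4 and 1 in FOXA2H-KO+CCl4 libraries 1, 2 and 4. Ighv9-3 had 33, 15 and 82 against 6, 10 and 2, and Igkv1-135 had 70, 19 and 129 against 22, 11 and 6. All 3 were higher in every control on the CPM scale, control 2 included. As a share of kappa V counts Igkv1-135 overlapped, since it held 9.36% in FOXA2H-KO+CCl4 library 1 against 7.25% in control 1 and 7.38% in control 4. Igkv2-109 had 58, 7 and 64 counts against 0, 4 and 1, Ighv5-4 had 32, 4 and 66 against 3, 2 and 0, and Ighv1-82 had 27, 4 and 67 against 4, 0 and 1. These last 3 segments did not pass the filter of the test, and their groups did not overlap either. Igkv17-127 and Igkv17-121, the near-identical pair printed above, together took 8.59%, 12.3% and 5.89% of kappa V counts in controls and 1.28%, 3.05% and 2.27% in FOXA2H-KO+CCl4, a sum that does not depend on how reads were divided between them.

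Segments are grouped into families by sequence, and 8 of the 30 families among the members (14 heavy, 16 kappa) had shares that did not overlap between the groups, 5 lower and 3 higher in FOXA2H-KO+CCl4. Of all single genes tested, the CPM values of 5.96% were lower and of 4.54% higher without overlap, which is a different measure from shares of families. Shares within a chain also depend on each other, since a larger share of a family leaves less for the others. The 8 families are therefore not separate outcomes. The Ighv1 family, the largest with 31 members, took 47.5%, 36.2% and 44.2% of heavy V counts in controls 1, 2 and 4 and 56.6%, 57.6% and 61.6% in FOXA2H-KO+CCl4. The Ighv9 family took 8.02%, 19.0% and 9.07% against 3.43%, 3.88% and 1.89%, and the Ighv5 family 11.3%, 6.67% and 12.8% against 3.43%, 5.07% and 5.03%. Ighv1 was thus higher and Ighv5 and Ighv9 lower in all FOXA2H-KO+CCl4 libraries. The Igkv2 family took 6.0%, 4.91% and 4.12% of kappa V counts in controls and 0%, 0.952% and 0.379% in FOXA2H-KO+CCl4, where a count of 0 in library 1 allows up to 1.28%. The Igkv4 family, with 14 members, took 9.11%, 6.75% and 9.15% against 11.5%, 10.1% and 15.9%. Ighv2 was also higher and Ighv15 and Igkv17 also lower. Ighv15, with 1 member, had 4, 1 and 5 counts in controls and 0, 1 and 0 in FOXA2H-KO+CCl4. A count of 0 allows up to 1.71% of heavy V counts in library 1 and 1.89% in library 4. Both limits lie above the Ighv15 shares of the controls, 0.629%, 0.952% and 0.394%.

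The V segments lie in a known order along the loci, and heavy V counts in FOXA2H-KO+CCl4 lay farther from the J segments. The Ighv1 members lie 1.08 to 2.52 Mb away, so that this distance and the larger Ighv1 share above are not separate results. The 65 heavy V members span 0.159 to 2.52 Mb from Ighj1 on chromosome 12. Weighted by counts, the mean distance was 1.19, 1.13 and 1.18 Mb in controls 1, 2 and 4 and 1.46, 1.39 and 1.44 Mb in FOXA2H-KO+CCl4, with means of 1.17 ± 0.0317 and 1.43 ± 0.0329 Mb (SD, n = 3). Segments over 1 Mb away held 52.2%, 47.6% and 50.7% of heavy V counts in controls and 61.7%, 61.2% and 66.04% in FOXA2H-KO+CCl4. When the leading segment of each library was left out, the distances became 1.22, 1.20 and 1.21 Mb against 1.38, 1.51 and 1.18 Mb, so that library 4 then lay below the controls and the groups overlapped. For kappa V, whose members span 0.0238 to 3.11 Mb from Igkj1 on chromosome 6, the mean distances overlapped, at 1.73, 1.88 and 1.70 Mb in controls and 1.93, 1.58 and 1.46 Mb in FOXA2H-KO+CCl4.

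**Figure D5:**
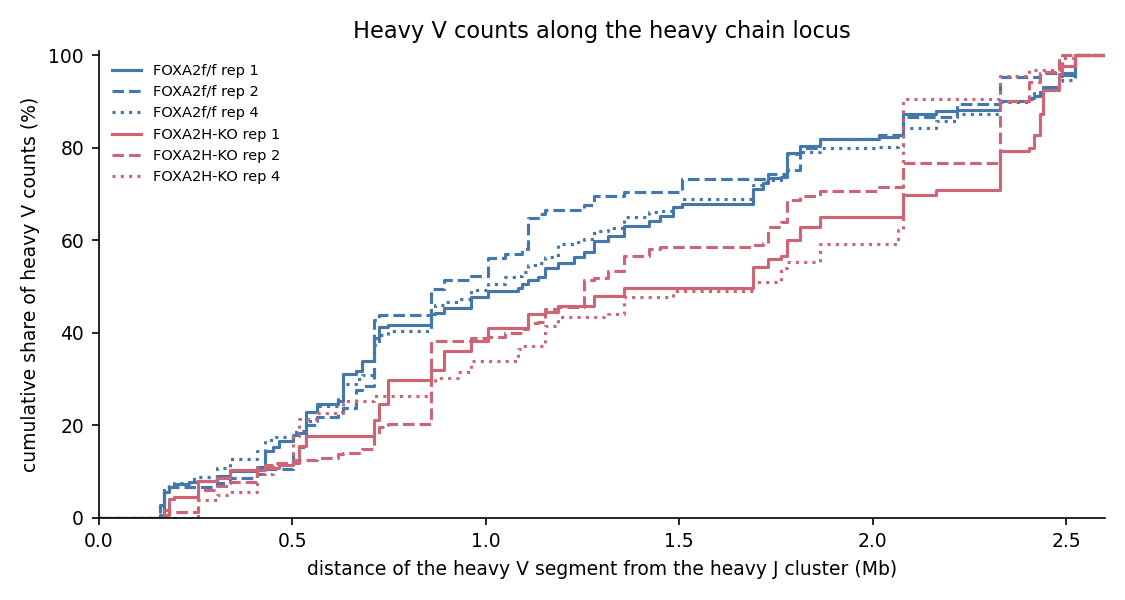
Cumulative share of heavy V counts, in percent, against the distance of the segment from the heavy J cluster in Mb; each line is 1 library, colour gives the group and line style the replicate. At a distance of 1 Mb the 3 FOXA2H-KO+CCl4 lines run below the control lines, and steps are single segments, such as the 28.3% step of Ighv1-64 in FOXA2H-KO+CCl4 library 4.

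Gene by gene, the test across all genes called no immunoglobulin gene. The edgeR quasi-likelihood test was fitted on 14417 genes with enough counts, 37 of them immunoglobulin genes (10 constant genes, Jchain and 26 V segments), and a gene was called at a Benjamini-Hochberg adjusted p under 0.05 with a fold change of at least 2. It called 0 of the 37, beside 1 of all genes (0.00694%), which was Foxa2. At an unadjusted p under 0.05 there were 10 of 37, all lower in FOXA2H-KO+CCl4, beside 5.17% of all genes. By overlap of the CPM values, 7 of the 37 were lower in all FOXA2H-KO+CCl4 libraries than in all controls, beside 5.96% of all genes, and 0 were higher in all, beside 4.54%. Over all 145, tested or not, 24 were lower and 2, Ighv2-5 and Igkj3, were higher without overlap. The share of all genes at the same count minimum was not computed, so these 2 numbers are a description only. Without control 2, 23 of the 37 were lower without overlap, beside 10.2%. Control 2 had the lowest immunoglobulin sum, so leaving it out favours this outcome. The quasi-likelihood test without control 2 gave 38 of 61 at an unadjusted p under 0.05, all lower, beside 828 of all 14821 genes. Without control 4, the highest in that sum, it gave 7 of 36 lower and 2 higher, beside 2424 of all 14560 genes. Members could pass the filter on the 3 control libraries alone, so these counts describe the genes that passed and not all 145. The median log2 difference of the 37 was -1.04, beside -0.012 for all genes, and 32 of the 37 were below 0.

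DESeq2 and edgeR's exact test, run as alternatives on the same counts, each called the same 5 immunoglobulin genes, all lower in FOXA2H-KO+CCl4: Ighg1, Ighv9-3, Igkv1-135, Igkv14-111 and Igkv17-127. Of all genes they called 0.486% and 0.444%. Under the quasi-likelihood test the log2 difference was -2.89 ± 0.70 (SE) for Ighg1 with an adjusted p of 0.645, and -3.46 ± 0.59 for Igkv14-111, the lowest of the 37, with an adjusted p of 0.579. It was -2.74 ± 0.62 for Ighv9-3, -2.40 ± 0.60 for Igkv1-135 and -2.94 ± 0.74 for Igkv17-127, whose relative Igkv17-121 had -2.93 ± 0.88. In the group means, Ighg1 was at 21.02 ± 15.9 CPM in controls and 2.84 ± 1.24 CPM in FOXA2H-KO+CCl4 (SD, n = 3). The 5 highest log2 differences were those of Ighd, 1.40 ± 0.66, Ighv1-72, 0.54 ± 0.68, Ighm, 0.44 ± 0.58, Igkv8-21, 0.22 ± 0.96, and Igkv5-39, 0.10 ± 1.09. Ighd had an unadjusted p of 0.0687 in this test and an adjusted p of 0.941.

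The other constant genes and the leading segments that were tested lay between these values. Ighg2c had -1.73 ± 0.73, Ighg2b -1.68 ± 0.63, Ighg3 -1.43 ± 0.46, Igkc -1.04 ± 0.68, Igha -0.87 ± 0.59 and Jchain -0.72 ± 0.47 on the log2 scale, with unadjusted p under 0.05 for the 3 IgG genes. Iglc2 had -1.63 ± 0.83 and Iglc1 -0.51 ± 0.64. Iglv1 had -1.76 ± 0.63, Ighv1-55 -1.82 ± 0.99, Igkv10-96 -1.36 ± 0.70, Igkv1-117 -0.93 ± 0.62 and Igkv1-110 -0.56 ± 0.77. Ighv3-6 and Ighv1-64, which each led the heavy V counts of 1 FOXA2H-KO+CCl4 library, had -0.16 ± 1.04 and -0.08 ± 0.82. Igkv10-94 had -0.46 ± 1.39. Ighmbp2, the helicase gene that the name rule also took, was at 5.54, 5.98 and 6.52 CPM in controls and 5.08, 4.93 and 6.75 CPM in FOXA2H-KO+CCl4.

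Markers of the cells that make immunoglobulin were read at low levels. Ms4a1 (CD20), a surface protein of B cells, was at 0.687, 0.274 and 0.477 CPM in controls 1, 2 and 4 and 1.40, 0.882 and 0.601 CPM in FOXA2H-KO+CCl4. Pax5, the transcription factor of B cell identity, was at 0.0859, 0 and 0.667 CPM against 1.03, 0.802 and 0.185 CPM. Cd79a and Cd79b, the signalling chains of the B cell receptor, had log2 differences of 0.49 and 0.45. Of the 16 B cell markers on the list, 14 were tested, 0 were called and 0 had an unadjusted p under 0.05; 13 of the 14 had a log2 difference above 0, with a median of 0.48 beside -0.012 for all genes. The summed list is no measure of B cells here, since Ly6d alone gave 34.1 to 96.1 CPM.

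Plasma cell markers gave no single direction. Mzb1, a chaperone that helps assemble IgM, was at 1.16, 0.603 and 2.16 CPM in controls and 0.772, 0.882 and 0.647 CPM in FOXA2H-KO+CCl4. Derl3, of the machinery that clears misfolded proteins, was at 4.85, 1.43 and 6.45 CPM against 4.89, 10.5 and 2.82 CPM, and Pou2af1, a B cell transcriptional coactivator, at 0.730, 0.384 and 1.21 CPM against 0.846, 2.09 and 0.601 CPM. FOXA2H-KO+CCl4 library 2, the highest of its group in summed immunoglobulin, was the highest in Derl3 and Pou2af1. Tnfrsf17 (BCMA) had 6 counts in all libraries together. Of 16 markers, 15 were tested and 0 called, 7 were above 0 and 8 below, and the median was -0.08. Fkbp11 and Sdc1 had an unadjusted p under 0.05, with log2 differences of -1.02 ± 0.32 and -0.37 ± 0.14; Sdc1, at 172 to 251 CPM, is also a gene of hepatocytes.

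Genes of class switching, antibody transport and B cell survival gave no call either. Of the 10 genes on the list of class switching and V(D)J recombination, 4 were tested, with a median log2 difference of -0.07. Pigr, the receptor that carries IgA into bile, was at 987, 945 and 931 CPM in controls and 803, 974 and 974 CPM in FOXA2H-KO+CCl4, a log2 difference of -0.06 ± 0.17. Fcgrt, the receptor that protects IgG from degradation, had -0.04 ± 0.14. The 11 transport genes and Fc receptors tested had a median of 0.18, the 5 survival ligand genes tested -0.03. No gene of these 3 lists had an unadjusted p under 0.05, beside 5.17% of all genes. The remaining lists had 0 calls as well; 5 of 8 neutrophil genes (S100a8, S100a9, Ngp, Camp and Ltf, proteins of neutrophil granules and cytosol) had an unadjusted p under 0.05, with log2 differences from -1.94 to -3.68, and DESeq2 and the exact test called Ngp and Ltf. Alas2, an enzyme of haem synthesis on the red blood cell list, had -1.17 ± 0.31 and an unadjusted p under 0.05. The medians of the neutrophil and red blood cell lists were -2.01 and 0.00030. The summed level of the red blood cell list was nonetheless lower in every FOXA2H-KO+CCl4 library than in every control. No gene of the T cell (2 of 12 tested), macrophage, endothelial or hepatocyte lists had an unadjusted p under 0.05, and their medians were 0.17, 0.32, -0.07 and -0.12.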

How the data were processed

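RNA of 6 hepatocyte preparations was sequenced by the authors in paired-end TruSeq libraries. The authors deposited whole-number read counts per Ensembl gene, without normalization, and FPKM values per library. The submitters' processing notes name CASAVA 1.8, TopHat2 2.1.0, HTSeq, edgeR and mm10; the annotation and the strand setting of the counting are not given in the sources used here. How multi-mapped reads were handled is not given either, which bears on near-identical V segments.

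Counts were fitted with edgeR 4.0.16 in R 4.3.3 (TMM, filterByExpr, quasi-likelihood test, Benjamini-Hochberg over 14417 genes), tested first on simulated data. CPM values use the TMM-adjusted library size, and fitted log2 differences are FOXA2H-KO+CCl4 minus FOXA2f/f+CCl4. Positions and sequences came from GENCODE M21. Symbols were found for 34267 of 34745 genes. Intervals are exact 95% binomial (Clopper-Pearson), and a count of 0 allows 3 counts. The Morisita and inverse Simpson indices used counts of V members.

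The members and gene lists were chosen with earlier results of these data known. Named genes were Foxa2, the constant genes and Jchain, the 3 leading heavy and kappa V segments and the leading lambda V segment per library, the segments with the widest range of shares, the 5 highest and 5 lowest log2 differences, defining markers (some are not reported here) and list genes with an unadjusted p under 0.05. Igkv2-109, the segments at the count minimum, those without a count in a group and those higher without overlap were chosen after their values were seen. The labels do not say that replicates came from separate mice, so p-values measure the spread between these libraries. Replicates differed by 27.6 to 94 times the sampling noise (chi-square per degree of freedom). Alternatives were DESeq2 1.42.0, edgeR's exact test, other scalings and filters, a replicate block and leaving out each library.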

Additional observations from a re-analysis of the deposited data

How the results depend on the processing

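With DESeq2 and with edgeR's exact test 5 immunoglobulin genes were called in place of 0, and 2 genes of the marker lists, Ngp and Ltf, in place of 0. At an unadjusted p under 0.05 with a 2-fold change the numbers were 10 of 37 and 7 of 98, beside 254 of all 14417 genes. Other scalings, other filters and no fold threshold gave 0 for both. Leaving out 1 library at a time gave 0 immunoglobulin genes each time and 0 to 1 list genes, the 1 without control 2. The log2 difference of Foxa2 was -3.74 with library size alone (adjusted p = 0.124), where the median of all genes was 0.104 in place of -0.012, and it ranged from -4.17 to -3.63 when each library was left out. It kept its direction throughout, but its adjusted p in the edgeR quasi-likelihood test passed 0.05 without control 1 or 4 or any 1 of FOXA2H-KO+CCl4 libraries 1, 2 and 4, reaching 0.499. Same-numbered libraries had correlations of their deviations of -0.103, 0.066 and -0.247, and differently numbered ones of -0.215 to 0.295. So few pairs cannot decide whether the numbers pair libraries. With a replicate block 0 immunoglobulin genes were called, Foxa2 had -3.88 (adjusted p = 0.0536) and Igkv5-39 turned to -0.56. Of 27 named immunoglobulin genes tested, 20 kept their direction in every setting. The other 7 changed sign when 1 library was left out: Ighv1-64 ranged from -1.11 to 0.38, Ighv1-72 from -0.43 to 1.08, Ighv3-6 from -2.44 to 0.84, Igkv1-110 from -1.02 to 0.49, Igkv10-94 from -7.21 to 0.49, Igkv5-39 from -1.91 to 0.67 and Igkv8-21 from -0.39 to 1.78, with 5 of the 7 highest values without control 4 and 6 of the 7 lowest without FOXA2H-KO+CCl4 library 2. As an effective number, kappa V dominance differed by -9.52 segments, a lower number being more uneven. The Ighg3 share differed by -0.83 points as FPKM. The gap in distance of heavy V counts was 0.145 Mb without the top segment of each library and 0.34 Mb with FPKM weights. The gap in similarity for heavy V was 0.294 by Pearson correlation and 0.239 to 0.463 when each library was left out; for kappa V it was 0.24 to 0.441. The summed level kept its direction, from -1.60 to -0.64 on the log2 scale when each library was left out. The similarity, IgG sum, Foxa2, list and distance alternatives were chosen after seeing the data, and where a value changed the cause was not tested. With 105 to 1268 heavy V counts per library, single segments of low share were not resolved.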
